A study of Mus musculus with 16 samples.

Results

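The mouse Ifi200 genes encode the PYHIN proteins, and 10 of them were followed here across nuclei of the hippocampus: *Ifi203*, *Ifi204*, *Ifi206*, *Ifi207*, *Ifi208*, *Ifi209*, *Ifi211*, *Ifi213*, *Mndal* and *Aim2*. They were taken by gene symbol from the 32285 genes that the count tables list. The 10 were chosen by their known response to DMXAA in wild-type mice, so their values in that comparison are given as a description, without a test. Single-nucleus RNA-seq was read from 16 male mice, 1 animal per library and 4 per group. The wild-type (WT) groups were C57BL/6 mice aged 2 months and 23 days, given vehicle or DMXAA, a small molecule that activates mouse STING. The knockout (KO) groups were *Ifnar1*-/- mice aged 3 months and 3 days, given vehicle or DMXAA. *Ifnar1* encodes a chain of the receptor for type I interferon. Agonist and vehicle were injected repeatedly into the peritoneum, and tissue was taken after the last injection. Genotype coincided with age and with any other difference between the WT and KO mice, so these cannot be told apart.

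PYHIN proteins pair a pyrin domain, which binds other pyrin domains, with HIN domains that bind DNA. AIM2 senses double-stranded DNA in the cytosol and recruits the adaptor ASC and caspase-1 into an inflammasome. IFI204, often compared with human IFI16, has been linked to DNA sensing upstream of STING, and IFI203 and MNDAL are mainly nuclear proteins. Many genes of the family are induced by type I interferon, which acts through the ISGF3 complex, of which STAT2 and IRF9 are parts. All 10 genes lie on chromosome 1 of GRCm38 (GENCODE M21), between position 173350879, where *Aim2* starts, and position 173942672, where *Ifi203* ends. *Ifi204* (ENSMUSG00000073489) spans 173747293 to 173766943 on the minus strand, next to *Ifi207* (173723427 to 173741747) on the same strand. The annotated body of *Mndal* (173849126 to 173942491) contains *Ifi211* and most of *Ifi203* on the same strand. Reads from these 3 genes can therefore not be fully told apart. That the counts were made with these gene bodies was inferred. *Aim2* overlaps *Cadm3*, a neuronal adhesion gene on the opposite strand. Family genes are near copies of each other, so reads shared between copies are a further limit on single-gene values.

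**Figure D1:**
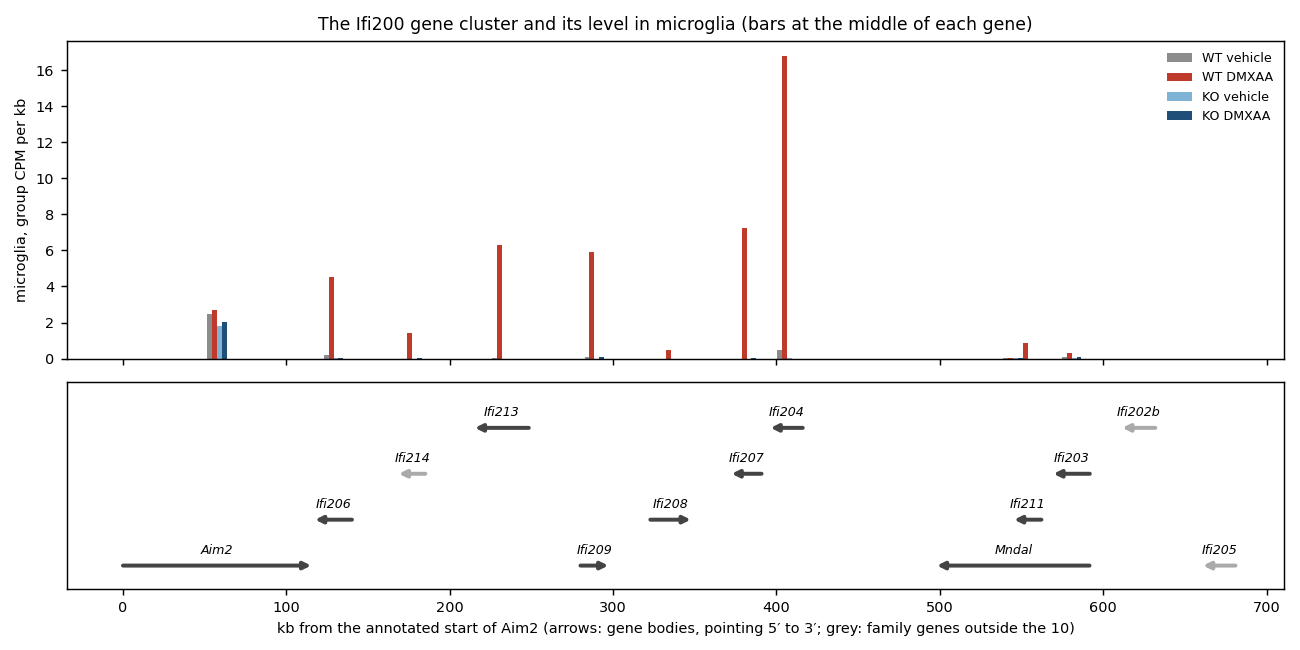
The Ifi200 gene cluster drawn to scale, with gene bodies as arrows (x axis, kb from the annotated start of *Aim2*) and, above, the level in microglia of each group (y axis, CPM per kb of gene body, 4 libraries summed). In WT DMXAA microglia *Ifi204* stands highest at 16.8, whereas *Aim2* has bars of similar height in all 4 groups.

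The 16 libraries held 7869 to 12457 barcodes each, of which 5163 to 9237 nuclei were kept after filtering, 108878 in all. They carried 32487360 to 51339912 unique molecular identifiers (UMIs, each standing for 1 captured RNA molecule) per library. Nuclei fell into 33 clusters, and 13 classes were named from marker genes. *Ifnar1* over all nuclei ranged from 10.8 to 12.6 CPM (UMIs of the gene scaled to a common library total) in the 8 KO libraries and from 13.5 to 19.1 CPM in the 8 WT libraries, with no overlap (exact permutation test, two-sided, p = 0.000155). By CPM the median gene over all nuclei also lay lower in KO vehicle than in WT vehicle, by 0.39 on the log2 scale, and the values of *Ifnar1* are on that CPM scale. Reads on introns and on remaining exons are counted, so the gene need not be at 0. WT DMXAA replicate 3 stood apart. It had the lowest *Ifnar1* of the WT libraries, the lowest microglial marker level, and most of the 154 nuclei of a cluster led by *Ltf*, *S100a9* and *Ngp* (78.6% of them). Any 2 libraries shared 12 to 41 barcodes.

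Microglia, the resident macrophages of the brain, held most UMIs of 7 of the genes after DMXAA in WT mice. Summed over 4 libraries, *Ifi204* was 36.8-fold higher with DMXAA than with vehicle, *Ifi209* 51.6-fold, *Ifi206* 23.9-fold and *Ifi213* 178-fold. *Ifi207*, *Ifi208* and *Ifi211* had no UMI in WT vehicle microglia and appeared with DMXAA. *Aim2*, *Mndal* and *Ifi203* differed from these 7 in level or in change. The microglial class held 4800 nuclei, 212 to 401 per library, and expressed 7 of 7 markers, among them *Csf1r* and *P2ry12*. The markers summed to 9546 to 10367 CPM in WT vehicle libraries and to 6226 to 9380 CPM in WT DMXAA libraries, and the part of this in the values below was not tested. In bulk sums of nuclei, fewer expressing nuclei and less RNA per nucleus cannot be told apart, and both are given here.

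*Ifi204* stood at 4.68, 17.8, 9.89 and 4.28 CPM in WT vehicle replicates 1 to 4, and at 672, 394, 86.0 and 224 CPM in WT DMXAA replicates 1 to 4. The lowest DMXAA library lay above the highest vehicle library. Over the group sums, the 36.8-fold ratio had a 95% interval of 24.4 to 58.4 from counting error alone. The fitted log2 change was 5.22 ± 0.60 (SE), 5.53 without WT DMXAA replicate 3, and 4.70 to 5.75 over all libraries left out in turn. *Ifi213* had 3.12, 1.62, 0 and 0 CPM with vehicle, which is 3 UMIs in all, and 447, 211, 82.4 and 118 CPM with DMXAA. Its ratio of 178 had a counting interval of 60.6 to 865, wide because of those 3 UMIs. The fitted change was 7.27 ± 0.79, 8.17 without WT vehicle replicate 1 and 6.66 without WT DMXAA replicate 1.

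*Ifi207*, the neighbour of *Ifi204*, had 0 UMIs in all 4 WT vehicle libraries, and 205, 85, 33 and 69 UMIs with DMXAA (286, 132, 38.9 and 91.5 CPM). Against a floor of 3 counts over the vehicle group, it was at least 113-fold higher. *Ifi206* went from 6.24, 8.09, 0 and 2.85 CPM to 252, 86.9, 21.2 and 63.7 CPM, a fitted log2 change of 4.55 ± 0.72, and of 3.70 without WT DMXAA replicate 1. In these genes, as in *Ifi204* and *Ifi213*, replicate 1 was highest and replicate 3 lowest, and the groups did not overlap. *Ifi209*, on the plus strand between *Ifi213* and *Ifi208*, had 1.56, 4.85, 1.65 and 0 CPM with vehicle. With DMXAA it had 178, 101, 58.9 and 72.9 CPM, a log2 change of 5.58 ± 0.59. This was 6.38 without WT vehicle replicate 2. With doublets kept, the changes were 3.83 for *Ifi206*, 3.84 for *Ifi209*, 6.04 for *Ifi213* and 6.81 for *Ifi207*, against 9.25 ± 1.04 for *Ifi207* without them. The vehicle group of *Ifi207* was at 0 there, so the size of 9.25 depends on how the fit treats a group without UMIs. The bound of at least 113-fold does not.

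*Ifi208* and *Ifi211* were the faintest of the 7. *Ifi208* had 0 UMIs with vehicle and 24, 3, 5 and 3 with DMXAA, at least 10.1-fold higher over the group. *Ifi211* had 0 UMIs with vehicle and 37, 3, 3 and 1 with DMXAA, at least 12.7-fold higher. For both genes most of the UMIs came from WT DMXAA replicate 1. Neither passed the filter on low counts. *Ifi203* had 4, 0, 0 and 0 UMIs with vehicle and 7, 6, 2 and 5 with DMXAA, a ratio of 4.33 with a counting interval of 1.45 to 17.4. *Mndal* had 7 UMIs with vehicle and 10 with DMXAA (1.24, 0.425 to 3.83). These counts are also low, and neither gene passed the filter.

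Per kb of gene body, the order of the levels in WT DMXAA microglia was *Ifi204* (16.8 CPM per kb), *Ifi207* (7.22), *Ifi213* (6.30), *Ifi209* (5.91), *Ifi206* (4.53), *Aim2* (2.71), *Ifi211* (0.889), *Ifi208* (0.478), *Ifi203* (0.303) and *Mndal* (0.0361). Compared within each mouse, *Ifi204* stood above *Ifi207* in 4 of 4 libraries. From *Ifi207* to *Aim2*, each gene stood above the next in only 2 or 3 of 4, and *Ifi211* above *Ifi208* and *Ifi208* above *Ifi203* in 2 of 4, so these parts of the order did not hold across mice. *Aim2* stood above *Ifi211* and *Ifi203* above *Mndal* in 4 of 4. In the separate WT vehicle mice the order was led by *Aim2*, followed at a distance by *Ifi204*. The bodies are those of GENCODE M21, and RefSeq places some starts elsewhere. The RefSeq promoter windows of *Aim2* (173420554 to 173420603) and *Mndal* (173880194 to 173880243) lie inside the GENCODE bodies. A body counted from the RefSeq start would be shorter and the level per kb higher, so the places of *Aim2* and *Mndal* depend on the annotation. The order also depends on the division by length, and whether UMIs scale with body length was not tested. By CPM alone in WT DMXAA microglia, *Ifi204* stood at 330, *Aim2* at 312 and *Ifi213* at 208. *Ifi207* stood at 132, *Ifi206* at 102 and *Ifi209* at 101 CPM.

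Of the 10 genes, 6 passed the filter in microglia, and 5 of the 6 did so through the WT DMXAA libraries. In the fit across genes (edgeR quasi-likelihood, called at a Benjamini-Hochberg adjusted p under 0.05 and an absolute log2 change over 0.1), those 5 were called, against 1.93% of the 8902 genes tested (172 genes). The choice of the members used this comparison, so nothing is read from that count. Over all nuclei the same 5 were called, against 0.403% of 20086 genes.

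**Figure D2:**
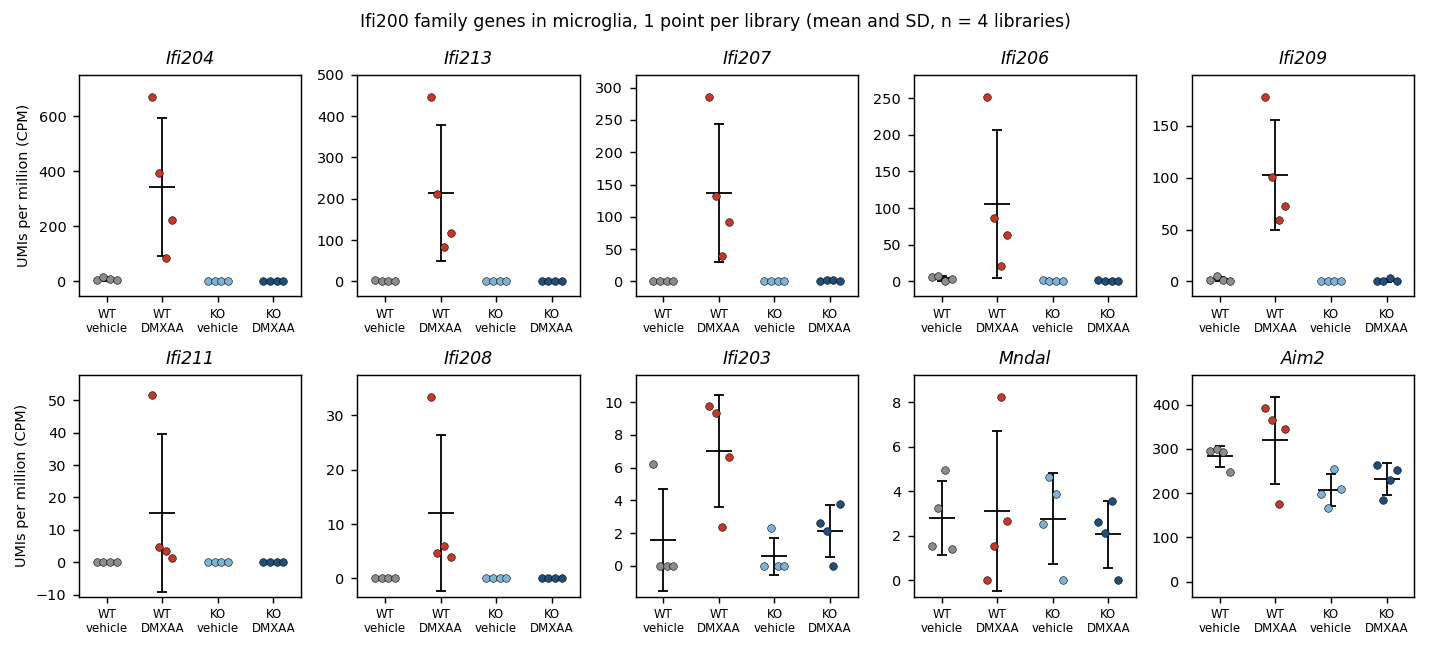
Level of each of the 10 genes in microglia (y axis, CPM, a separate linear scale per gene), 1 point per library by group, with mean and SD bars (n = 4 libraries). For *Ifi204*, *Ifi213*, *Ifi207*, *Ifi206* and *Ifi209* every WT DMXAA library lies above all other libraries, while the KO groups stay near 0, and *Aim2* overlaps between WT groups.

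At least 1 UMI of any of the 7 genes (*Ifi204*, *Ifi206*, *Ifi207*, *Ifi208*, *Ifi209*, *Ifi211* and *Ifi213*) was found in 63.1% of WT DMXAA microglial nuclei, 38.2% to 90.6% by library. In WT vehicle the share was 2.57%, 1.09% to 4.44% by library. With every nucleus thinned to 500 UMIs the shares were 31.8% and 0.833%, and in excitatory neurons 0.0238% and 0%. Excitatory neurons, which hold more UMIs per nucleus, gave 0.341% in WT DMXAA and 0.131% in WT vehicle without thinning. Whether these UMIs were background RNA or low expression in neurons was not tested.

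Several genes of the family were seen together in single nuclei. Of 1476 WT DMXAA microglial nuclei, 486 (32.9%) had UMIs of 2 or more of the 7 genes and 224 (15.2%) of 3 or more, up to all 7 in 1 nucleus. In WT vehicle, 1 of 1321 nuclei had 2. *Ifi204* alone was found in 39.2% of WT DMXAA nuclei, *Ifi213* in 23.4%, *Ifi207* in 18.8%, *Ifi209* in 16% and *Ifi206* in 15%. These shares pool the nuclei of a group and are not given by mouse. Between the WT DMXAA mice the summed level of the 7 genes ran from 297 to 1920 CPM.

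**Figure D3:**
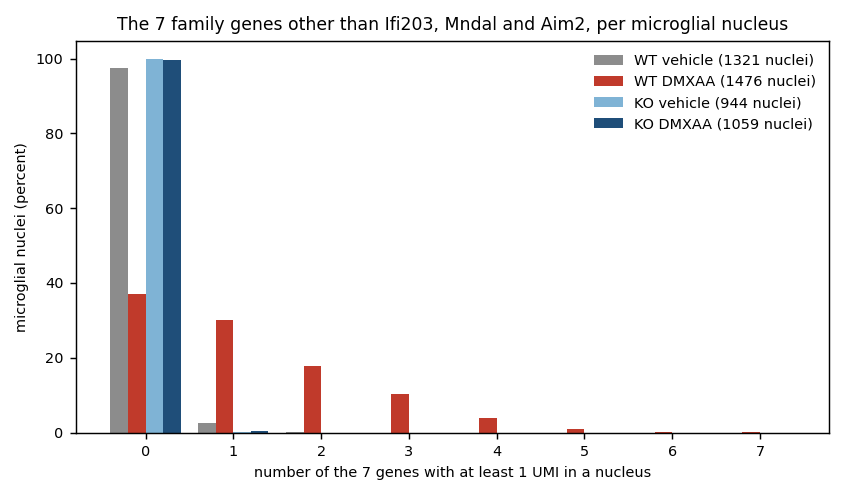
Share of microglial nuclei (y axis, percent) by the number of the 7 genes with at least 1 UMI (x axis), for the 4 groups. Nuclei of a group are pooled over its libraries. In WT DMXAA 63.1% of nuclei hold 1 or more and the bars reach to 7 genes, whereas nearly all nuclei of the other groups hold none.

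The 7 genes summed to 1920, 935, 297 and 576 CPM in WT DMXAA replicates 1 to 4, so mice of 1 group differed widely. In WT vehicle they summed to 7.13 to 32.4 CPM. Replicate 3, with the lowest sum, also had the lowest microglial marker level (6226 CPM), whereas replicate 1, with the highest sum, had the next lowest (7711 CPM). The part of marker level in this spread was not tested.

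Without the interferon receptor the 7 genes were nearly silent in microglia, with or without the agonist. In KO vehicle microglia the nuclei with any UMI of the 7 made up 0.212% of 944, and in KO DMXAA microglia 0.472% of 1059. *Ifi204* had 0, 1, 0 and 0 UMIs in KO vehicle libraries and none in the KO DMXAA libraries. *Ifi213*, *Ifi208* and *Ifi211* had none in all 8 KO libraries. *Ifi206*, *Ifi207* and *Ifi209* had at most 2 UMIs in any KO library. The KO groups held 1782969 and 1949296 microglial UMIs, against 2567934 and 2964921 in WT, so a level of 3 UMIs would have stood at 1.68 and 1.54 CPM.

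The comparison of KO DMXAA with KO vehicle was not used to choose the genes. In microglia 6 members entered the test and none was called, where edgeR called 0% of 8902 genes (433 genes had an unadjusted p under 0.05, none of them a member), and DESeq2 called 0 members as well. For 5 of the 6, which passed the filter only through the WT DMXAA libraries, each KO group held 0 to 2 UMIs, and their outcome says nothing about a change. The interval for *Ifi207*, for example, ran from -2.20 to 7.30 on the log2 scale. *Aim2*, the one with ample counts, had a log2 change of 0.11 ± 0.18 (95% interval -0.25 to 0.48, adjusted p = 0.932). Across 25 classes, clusters and the sum of all nuclei, 39 tests of members gave no call in KO, where 0% to 0.031% of all genes were called per unit, so the absence of calls says nothing particular to the members. Shares of nuclei with a UMI gave 50 exact permutation tests in KO, 2 with p = 0.0286, the smallest that 70 arrangements allow, and none after adjustment (smallest adjusted p = 0.715). In excitatory neurons edgeR called 0% of genes in KO (976 at an unadjusted p under 0.05) and over all nuclei 0% (1111), with 0 members at that unadjusted level in either.

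Set side by side after DMXAA, WT microglia had at least 214-fold more *Ifi204* and at least 135-fold more *Ifi213* than KO microglia, against a floor of 3 counts over the KO group. *Ifi206* was 199-fold higher (counting interval 35.5 to 7894), *Ifi207* 129-fold (35.4 to 1068) and *Ifi209* 98.0-fold (26.9 to 813). The difference between the WT and KO responses called 0.18% of genes in microglia and none of the members. The WT response enters this test, so it is given as a description. For all tested members but *Aim2* the KO groups held hardly any UMIs, so the test cannot resolve a difference for them. No likeness of the WT and KO responses is read from the missing calls.

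Few UMIs carried the comparison at rest, KO vehicle with WT vehicle. The vehicle libraries also enter the DMXAA comparisons, which share them. *Ifi204* had 3, 11, 6 and 3 UMIs in WT vehicle libraries and 1 in all KO vehicle libraries together, and the libraries did not overlap. The log2 change was -3.45 ± 1.48 (edgeR adjusted p = 0.128), short of the threshold. It was -2.91 without WT vehicle replicate 2 and -5.39 without KO vehicle replicate 2, which held the only KO UMI. Of the 8902 genes tested, 13.2% were called in this comparison of KO vehicle with WT vehicle. *Ifi204* entered this test through the WT DMXAA libraries, and its outcome changed with the settings. It was past the threshold without WT DMXAA replicate 3, with DESeq2, without the filter and with doublets kept, and no support is read from those settings. Over all nuclei *Ifi204* was lower in KO vehicle, 1, 5, 3 and 2 UMIs against 27, 23, 12 and 13. Its log2 change there was -2.33 ± 0.63 (adjusted p = 0.00785), the only member called, where 48.5% of genes were. Border macrophages held 35 of the 75 UMIs of *Ifi204* in WT vehicle libraries.

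*Aim2* behaved unlike its neighbours. In microglia it stood at 296, 299, 292 and 248 CPM in WT vehicle and at 392, 365, 175 and 345 CPM in WT DMXAA. Replicates 1, 2 and 4 with DMXAA lay above all vehicle libraries, and replicate 3 lay below them. The log2 change was 0.18 ± 0.18, and 0.36 without WT DMXAA replicate 3. KO vehicle libraries had 198, 167, 254 and 209 CPM, and KO DMXAA libraries 264, 184, 229 and 253 CPM. At rest the KO level was 0.740-fold that of WT by CPM (log2 change -0.31 ± 0.18 in the fit, adjusted p = 0.246), and the libraries overlapped. The median gene lay 0.15 lower on the log2 scale in KO vehicle microglia by CPM than in the fit, which scales for composition.

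Promoters of the family were read for the element through which ISGF3 acts. The RefSeq promoter table (GRCm38.p6, from 250 bases before each start to 50 after) matched 9 of the 10 members by symbol, and *Ifi204* was not among them. The motif searched was GAAANNGAAA, the core of an interferon-stimulated response element, on both strands. It was found in 7 of the 9 members, where 3.99% of 27025 genes had it (3.44% of 32851 promoter windows). The members had 11 windows, and a further start of *Ifi203* had no match in its window. The exact copy GAAATCGAAA was picked as the commonest match in the family's own windows. Its count in the family is high by that choice, and no enrichment is read from it. It was present in 6 members (*Ifi203*, *Ifi206*, *Ifi207*, *Ifi208*, *Ifi213* and *Mndal*), and in 16 promoter windows in all (0.0487%). A second motif, TTCNNNGAA, the GAS type, was in 8.30% of windows and in 0 members. By gene, the GAS type was in 9.55% of 27025, and the exact copy was in 16 genes, of which 7 were of the family. The motifs were searched separately, and no overlap between them arose in the members.

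The 50 bases around each copy are shown for the members as they compare, in coding direction, with the 10 bases of the element in capitals.
Ifi213 (chr1:173599316-173599365, minus strand): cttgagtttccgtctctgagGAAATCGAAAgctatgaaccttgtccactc
Ifi208 (chr1:173673587-173673636, plus strand): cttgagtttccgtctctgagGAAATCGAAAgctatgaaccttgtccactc
Ifi206 (chr1:173491329-173491378, minus strand): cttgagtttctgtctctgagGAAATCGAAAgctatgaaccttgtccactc
Ifi207 (chr1:173741821-173741870, minus strand): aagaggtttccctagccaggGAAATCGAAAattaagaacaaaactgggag
Ifi211 (chr1:173913054-173913103, minus strand): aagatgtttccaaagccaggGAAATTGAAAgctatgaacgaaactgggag
Ifi203 (chr1:173942498-173942547, minus strand): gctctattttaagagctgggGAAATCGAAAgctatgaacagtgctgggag
Mndal (chr1:173880194-173880243, minus strand): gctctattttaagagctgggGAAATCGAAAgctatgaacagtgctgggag
Ifi209 (chr1:173630760-173630809, plus strand): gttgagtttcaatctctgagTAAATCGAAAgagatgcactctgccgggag

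In these windows the element lay 35 to 73 bases before the start for the 7 members with a match. *Ifi211* differed from the common copy by C6T, counted from the first base of the element, and *Ifi209*, without a match, by G1T in its nearest copy. The windows of *Ifi208* and *Ifi213* were identical over 50 bases and that of *Ifi206* differed from them at 1 base. Those of *Ifi203* and *Mndal* were identical as well. Near-identical windows are not independent observations of the element. The window of *Aim2* had no match.

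In WT DMXAA libraries microglia held 94.0% of all *Ifi204* UMIs, 93.4% of *Ifi209*, 93.2% of *Ifi206*, 91.0% of *Ifi213* and 89.5% of *Ifi207*. *Ifi203* and *Mndal* lay elsewhere, with 76.3% and 72.5% of their UMIs in excitatory neurons and 2.58% and 0.917% in microglia. *Aim2* was spread over classes, with 55.6% of UMIs in excitatory neurons and 17.3% in microglia. The shares follow the number and depth of nuclei as well as the level in each.

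**Figure D4:**
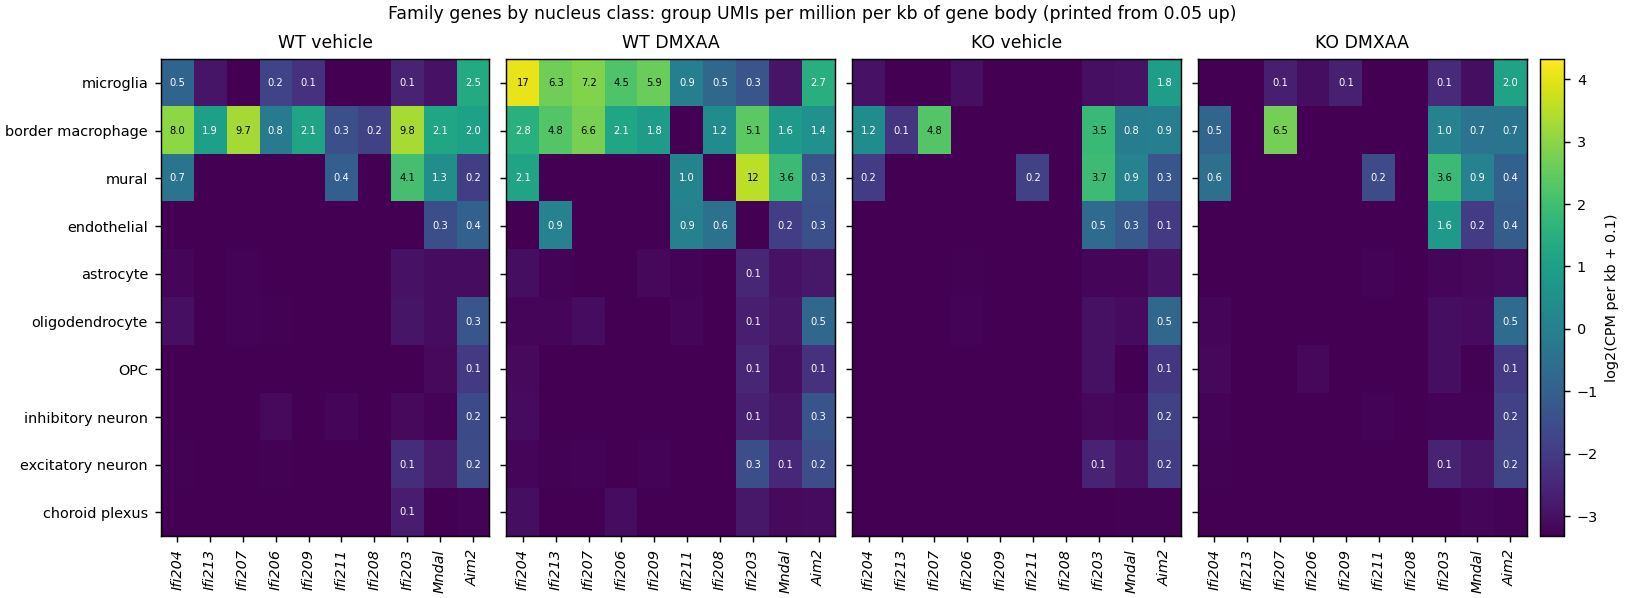
Level of the 10 genes (columns) in 10 classes of nuclei (rows) for the 4 groups, as CPM per kb of gene body with libraries summed, coloured on a log2 scale with 0.1 added. In microglia *Ifi204*, *Ifi213*, *Ifi207*, *Ifi206* and *Ifi209* stand high in WT DMXAA, with *Ifi211* and *Ifi208* lower and below *Aim2*. Border macrophages hold many of the 7 left-hand genes with vehicle as well, and mural cells show *Ifi203* and *Mndal* in all 4 groups. Border macrophages (303 nuclei), mural cells (401) and endothelial cells (245) rest on few nuclei.

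Border macrophages, the macrophages of the meninges and perivascular spaces, held UMIs of several members without the agonist. The class held 303 nuclei over 16 libraries, too few per library for a fit, so its values are sums over a group. In WT vehicle, *Ifi207* stood at 178 CPM, *Ifi203* at 219, *Ifi204* at 156 and *Ifi213* at 62.5 CPM. The UMIs there were 51 of *Aim2*, 45 of *Mndal*, 8 of *Ifi209*, 4 of *Ifi206* and 1 each of *Ifi208* and *Ifi211*. Microglia of the same libraries had 0, 1.56, 8.96 and 1.17 CPM of *Ifi207*, *Ifi203*, *Ifi204* and *Ifi213*. With DMXAA, border macrophages of WT mice had 121 CPM of *Ifi207* (20 UMIs against 40) and 157 CPM of *Ifi213* (26 against 14), a ratio of 2.51 for *Ifi213* with a counting interval of 1.26 to 5.20. *Ifi204* had 9 UMIs against 35, a ratio of 0.347 (0.147 to 0.737), and *Ifi203* 19 against 49, a ratio of 0.524 (0.291 to 0.906). WT DMXAA replicate 3, the library that stood apart, gave 13 of the 20 UMIs of *Ifi207*, 19 of the 26 of *Ifi213*, 5 of the 9 of *Ifi204* and 15 of the 19 of *Ifi203*. In the border macrophages of KO mice *Ifi207* stood at 87.0 CPM with vehicle and 119 CPM with DMXAA, and *Ifi213* had 1 UMI and 0 UMIs. KO vehicle was below WT vehicle for *Ifi207* (ratio 0.488, counting interval 0.276 to 0.841), *Ifi203* (0.362, 0.204 to 0.620), *Ifi204* (0.152, 0.0523 to 0.365) and *Ifi213* (0.0633, 0.0015 to 0.416). The ratios of *Mndal* and *Aim2* were 0.394 and 0.452. These intervals cover counting error and not the spread between mice. WT vehicle libraries held 5 to 30 nuclei of the class and KO vehicle libraries 14 to 26. The shift of the median gene by CPM was not computed in this class, so its part in these ratios was not tested. Any of the 7 genes was found in 51.9% of WT vehicle nuclei of the class and in 23.8% of KO vehicle nuclei.

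Excitatory neurons (44768 nuclei) expressed *Ifi203* and *Mndal* with vehicle, and both stood higher with DMXAA in WT. *Ifi203* had 1.73, 3.15, 2.07 and 2.10 CPM in WT vehicle and 7.41, 5.54, 5.70 and 3.60 CPM in WT DMXAA. The 2 groups did not overlap, and the ratio of the sums was 2.50 (counting interval 2.15 to 2.92). The log2 change of 1.40 ± 0.29 is likewise a description, and was not among the 0.119% of 17626 genes called. *Mndal* had 3.57, 5.48, 3.98 and 3.27 CPM with vehicle and 9.85, 6.91, 8.13 and 4.62 CPM with DMXAA, where the lowest DMXAA library lay below the highest vehicle library. Its log2 change was 0.97 ± 0.29. Cluster 13, a set of excitatory nuclei described below, held 177 of the 238 UMIs of *Ifi203* in WT vehicle and 357 of the 591 in WT DMXAA, and 265 of 428 and 443 of 791 of *Mndal*. It was 537 of 13024 excitatory nuclei in WT vehicle and 831 of 12620 in WT DMXAA, 77 to 238 and 67 to 406 per library. Within it the ratios were 1.27 (counting interval 1.06 to 1.53) for *Ifi203* and 1.05 (0.901 to 1.23) for *Mndal*. The values over all excitatory neurons therefore mix levels within clusters with the share of nuclei from each cluster.

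*Ifi203* had 1.0, 2.32, 1.43 and 1.08 CPM in KO vehicle and 1.67, 1.59, 1.34 and 1.17 CPM in KO DMXAA (log2 change -0.12 ± 0.32, 95% interval -0.75 to 0.51, edgeR adjusted p = 0.922). *Mndal* gave 0.12 ± 0.30 (-0.47 to 0.72, adjusted p = 0.915). The difference between the WT and KO changes was not called for either gene. At rest, KO against WT neurons gave -0.15 ± 0.31 for *Ifi203* (adjusted p = 0.695) and -0.10 ± 0.30 for *Mndal* (adjusted p = 0.790), neither called, where 49.5% of genes were. These sums mix clusters too: cluster 13 was 605 of 9556 excitatory nuclei in KO vehicle and held 103 of the 140 UMIs of *Ifi203* there, and both genes stood lower within it, as given below. Over all excitatory neurons, the KO vehicle levels by CPM were 0.643-fold (*Ifi203*) and 0.672-fold (*Mndal*) those of WT vehicle. The median gene lay 0.54 lower on the log2 scale by CPM in KO neurons, and 0.08 lower in the fit.

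In excitatory neurons of WT DMXAA the 7 microglial markers stood at 0.000441 to 0.0625 of their microglial level (*Inpp5d* lowest, *P2ry12* highest), and *Ifi204* at 0.000465. *Ifi203* and *Mndal* stood at 0.840 and 2.25 times their microglial level.

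Clusters of excitatory neurons differed in these genes, and clusters 0 and 13 were picked out after their values were seen. Cluster 0 (17524 nuclei, led by *Glis3*, *Adarb2* and *Prox1*, the last a factor of dentate granule neurons) had little *Ifi203* with vehicle. It held 5, 12, 3 and 11 UMIs in WT vehicle and 48, 27, 45 and 29 UMIs in WT DMXAA, a ratio of 4.52 in CPM (counting interval 3.05 to 6.89). The groups did not overlap. The log2 change was 2.32 ± 0.36, a description, since the gene and the cluster were chosen with such values known. It was among the 0.110% of 14520 genes called, but not without WT vehicle replicate 1 or when only the WT libraries were fitted, and nothing is read from the call. In KO the counts were 8, 5, 12 and 3 against 5, 4, 5 and 7. *Mndal* in this cluster changed by 1.02 ± 0.33 in WT, with no overlap, and was not called. Higher sums with DMXAA in WT were also seen outside cluster 0. For *Mndal* the ratio was 10.9 in cluster 16 (29 UMIs against 3, counting interval 3.39 to 56) and 3.37 in cluster 5 (1.76 to 6.97). In cluster 14 it was 0.949 (0.223 to 3.13). Inhibitory neurons had 30 UMIs of *Mndal* against 3 (7.29, 2.27 to 37.3). Neither gene passed the filter in these clusters or in inhibitory neurons, so these values are a description.

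Cluster 13 (2469 nuclei, led by *Hs3st4*, *Cpne4* and *Grik4*) had the highest *Ifi203* and *Mndal* of the excitatory clusters fitted. *Ifi203* stood at 27.0, 26.9, 52.0 and 40 CPM in WT vehicle and 57.8, 46.0, 33.5 and 46.3 CPM in WT DMXAA, which overlap (0.39 ± 0.28). In KO libraries it stood at 13.6, 17.1, 13.2 and 9.58 CPM with vehicle and at 31.1, 16.3, 13.8 and 8.07 CPM with DMXAA. *Mndal* was at 52.4, 43.4, 64.6 and 48.4 CPM in WT vehicle and at 21.0, 28.8, 25.4 and 21.7 CPM in KO vehicle. A UMI of *Ifi203* was found in 23.8% of the cluster's WT vehicle nuclei and in 12.4% of its KO vehicle nuclei. Cluster 23, which was given no name and so lies outside this ranking, held *Mndal* at a higher level than cluster 13 and *Ifi203* at a similar one. In WT vehicle it had 20 UMIs of *Ifi203* and 48 of *Mndal* in 594217 UMIs, whereas cluster 13 had 177 and 265 in 5387582.

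At rest both genes stood lower without the receptor in cluster 13, and the libraries did not overlap. The log2 changes were -1.0 ± 0.30 for *Ifi203* and -0.67 ± 0.20 for *Mndal*, a description, since the cluster was picked out after its values of these genes were seen. Both were among the 36.9% of 10787 genes called, and nothing is read from those calls. *Aim2* gave -0.81 ± 0.38. Neither *Ifi203* nor *Mndal* was called without KO vehicle replicate 4, and 1 of them without WT vehicle replicate 3. The median gene lay 0.46 lower by CPM and 0.08 lower in the fit. For DMXAA in WT, 0.0185% of the genes of cluster 13 were called and no member.

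**Figure D5:**
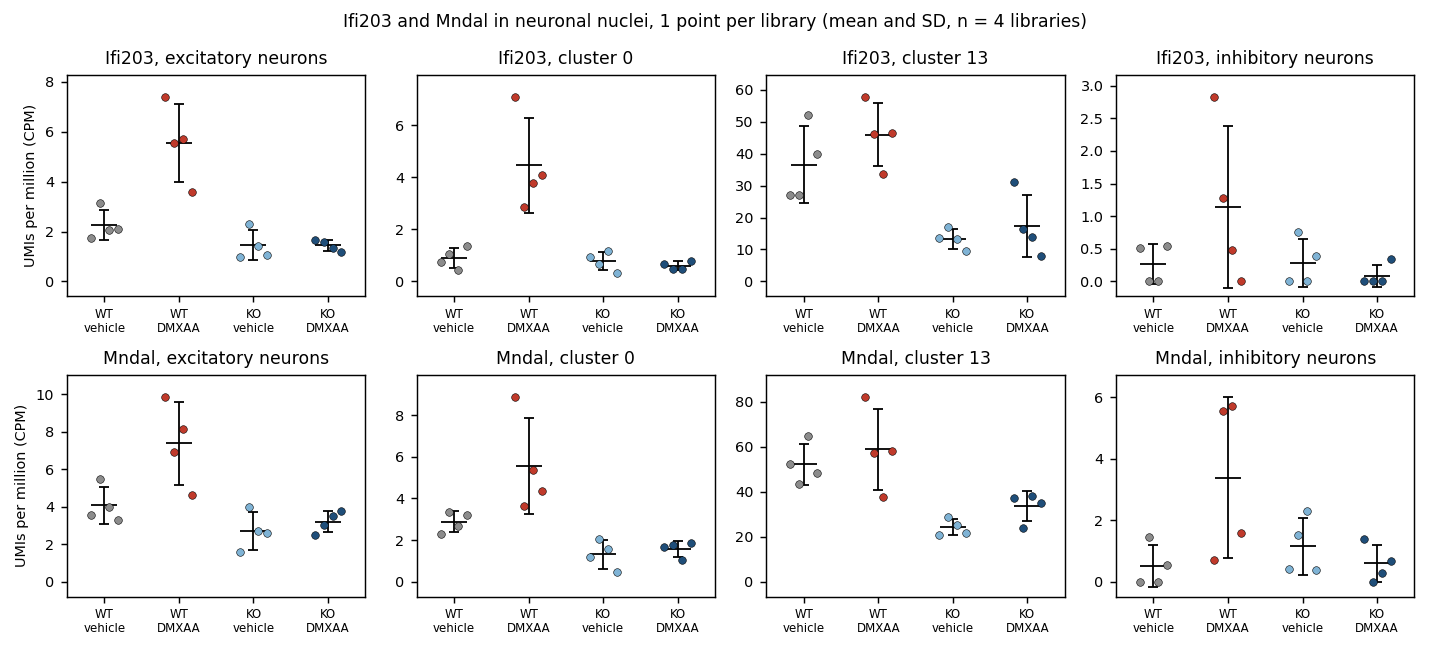
*Ifi203* (upper row) and *Mndal* (lower row) in excitatory neurons, in their clusters 0 and 13 and in inhibitory neurons (y axis, CPM), 1 point per library with mean and SD (n = 4 libraries). In excitatory neurons and cluster 0 the WT DMXAA points of *Ifi203* lie above all vehicle points, and in cluster 13 the WT groups overlap and lie above the KO vehicle points.

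Mural cells, the pericytes and smooth muscle of vessels, had *Ifi203* at 91.6 CPM in WT vehicle (14 UMIs) and 258 CPM in WT DMXAA (31 UMIs), a ratio of 2.82 with a counting interval of 1.46 to 5.73. *Mndal* went from 118 to 333 CPM there (18 and 40 UMIs). In KO the 2 levels of *Ifi203* were 81.5 and 79.5 CPM. The class was too small for a fit. The 40 UMIs of *Mndal* in WT DMXAA were 0, 3, 20 and 17 by replicate, so replicates 3 and 4 gave most of them. The class held 58 nuclei in WT DMXAA, 0 to 25 per library, so these counts follow the nuclei as well as the level.

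*Aim2* was tested in microglia, excitatory and inhibitory neurons, astrocytes, oligodendrocytes and their precursors, and in KO it was not called with DMXAA in any of these, where 0% of genes were called in each. Its WT changes with DMXAA, a description, were 1.05 ± 0.45 in astrocytes, 0.36 ± 0.23 in inhibitory neurons and -0.33 ± 0.32 in the precursors. In oligodendrocytes it had 29.0, 47.9, 33.0 and 35.7 CPM in WT vehicle, 48.8, 63.7, 71.7 and 35.1 CPM in WT DMXAA and 51.9, 71.3, 50.3 and 45.6 CPM in KO vehicle. The WT change with DMXAA was 0.73 ± 0.24 and the groups overlapped. KO vehicle was higher than WT vehicle by 0.75 ± 0.24 on the log2 scale (adjusted p = 0.0303), where 29.8% of 12025 genes were called, and this call was lost when any of 5 libraries was left out. In excitatory neurons the change with DMXAA was 0.17 ± 0.17 in WT and 0.26 ± 0.17 in KO (adjusted p = 0.784). Per kb, *Aim2* in WT vehicle stood at 2.45 CPM in microglia.

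The genes around the family in the pathway were read from short lists, chosen with earlier results of these data known, so their calls in WT are not independent evidence. Of the ISGF3 genes, *Stat2* rose in WT microglia by 2.57 ± 0.35 on the log2 scale (edgeR adjusted p = 0.000491) and *Irf9* by 1.28 ± 0.31 (adjusted p = 0.0388), against a median of 0.02 over all genes. The call of *Irf9* was lost without any 1 of the 4 WT vehicle libraries or of WT DMXAA replicates 1, 2 and 4 (adjusted p = 0.0607 to 0.133), and with only the compared groups (0.165). Neither was called in KO microglia, where *Stat2* had 36.1 ± 8.21 CPM with vehicle and 25.5 ± 9.87 CPM with DMXAA (SD, n = 4). In WT excitatory neurons *Irf9* rose (1.53 ± 0.20, adjusted p = 0.00173). With only the compared groups the change was 1.52 ± 0.24 and the call was lost (adjusted p = 0.142). *Stat2* gave 0.86 ± 0.19 there (adjusted p = 0.176), and was called with DESeq2 (adjusted p = 0.00671) and without WT DMXAA replicate 1 (0.0124) or 3 (0.0251). Its change was smaller without replicate 1 (0.52 ± 0.08) and larger without replicate 3 (0.98 ± 0.18).

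Of the cGAS and STING list, 6 of 9 genes were tested in microglia and 1 rose, *Irf7*, a factor that amplifies interferon transcription (5.42 ± 0.87, adjusted p = 0.00717, where 1.93% of genes were called). *Irf7* was not called with DESeq2 (adjusted p = 0.154), and did not pass the low-count filter without WT DMXAA replicate 1, 2 or 4. Its change was 8.05 without WT vehicle replicate 2. *Irf7* went from 1.21 ± 2.43 CPM to 59.7 ± 42.3 CPM (SD, n = 4) and was at 0 in KO microglia. *Cgas*, *Tbk1*, *Irf3*, *Ddx41* and *Tmem173*, which encodes STING, did not pass the test. In excitatory neurons *Irf7* alone of the 6 tested rose as well (4.20 ± 0.67, adjusted p = 0.0108, where 0.119% of genes were called). That call was lost without WT vehicle replicate 1, 2 or 3 (adjusted p = 0.0762, 0.0558 and 0.0731) and with only the compared groups (0.435), and the change was 3.20 without WT DMXAA replicate 1. Of the AIM2 inflammasome list, 7 of 8 genes were tested in microglia and none was called in either genotype, with a median of 0.31 in WT. *Casp4*, *Pycard* and *Casp1* were named after their values were seen. *Casp4*, the mouse caspase-11 gene, gave 0.87 ± 0.31 (adjusted p = 0.244), and was called when WT DMXAA replicate 3 was left out. *Pycard*, which encodes ASC, gave -0.08 ± 0.36 and *Casp1* 0.41 ± 0.43.

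Within 500 kb the annotation lists 27 other protein-coding genes, many of them olfactory receptors. *Fmn2* alone passed the filter in microglia, with 1.46 ± 0.70 in WT (adjusted p = 0.524) and -0.49 ± 0.65 in KO. In excitatory neurons *Cadm3* gave -0.11 ± 0.11, *Fmn2* 0.06 ± 0.17 and *Ackr1* -0.57 ± 0.20 in WT, and none was called. Of 9 other PYHIN genes listed, 3 were in the count tables, and none of these was tested in microglia or excitatory neurons.

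Among the genes whose levels followed the summed 10 members most closely over 50 points (means of classes and groups) were *Wdfy3* (Pearson r = 0.83), *Fam117b* (0.83) and *Pik3cd* (0.82). None of them was called in WT microglia with DMXAA. *Aim2* makes up much of that sum outside WT DMXAA microglia. Against the sum of the 7 genes alone, a choice made after the data were seen, genes among the closest were *Slfn2* (0.85), *Ms4a6c* (0.82), *Trim30c* (0.80) and *Ms4a6b* (0.78). Their points include WT DMXAA microglia, so the log2 changes there of *Slfn2* (3.33 ± 0.49) and *Trim30c* (2.62 ± 0.41) are a description. The points share libraries, and the correlations are a description.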

How the data were processed

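Raw UMI counts per gene and barcode were deposited by the authors as 1 filtered matrix per mouse. Per the labels, reads with introns were aligned to mm10 with Cell Ranger 3.1.0, whereas the file headers name 6.1.2, and Seurat 3.0 is listed. Nuclei with 200 to 4000 genes and at most 5% mitochondrial UMIs were kept, and 9327 predicted doublets were removed. Nuclei were clustered (2000 variable genes without the members or interferon-stimulated genes, 30 components, Leiden resolution 0.5, leidenalg 0.10.2) and classes were named from markers. UMIs were summed per library and class. Fits, and the class and group means used for correlations, took libraries with at least 20 nuclei of the class. Group sums and their folds took all libraries. Library totals of kept nuclei were 32487360 to 51339912 UMIs. Sums of 4 groups of 4 mice were fitted in 1 model with edgeR 4.0.16 (quasi-likelihood, TMM, low-count filter; R 4.3.3), with Benjamini-Hochberg adjustment over all genes of a fit. Calls needed both a log2 change beyond 0.1 in size and an adjusted p below 0.05. The members and lists were chosen with earlier results of these data known. All 10 members are named whatever their values, list genes where called, and genes from the 5 most like the members by Pearson r. Some genes that these rules name are not reported here. Folds of group sums carry exact 95% intervals for counting error only, and a group at 0 was set to 3 counts. Shares were tested by exact two-sided permutation. The fit was tested on simulated counts. Alternatives were DESeq2 1.42.0, RLE factors, no low-count filter, only the compared groups, doublets kept, at least 500 genes per nucleus, thinning, and each library left out.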

Additional observations from a re-analysis of the deposited data

Results flagged for a closer look

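Of 55 groups of 4 libraries with at least 20 UMIs of a member, 4 held a library far from the other 3, and chance alone flags about 1 in 20 groups. In WT DMXAA microglia, replicate 1 had 33.4 CPM of *Ifi208* against 3.98 to 5.89 in the others, and 51.6 CPM of *Ifi211* against 1.33 to 4.66. In WT vehicle microglia, replicate 4 had 248 CPM of *Aim2* against 292 to 299. In cluster 13, KO vehicle replicate 1 had 21.0 CPM of *Aim2* against 12.1 to 13.2.

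Signals were also found outside the genes and classes compared. *Ifi214*, a family gene between *Ifi206* and *Ifi213* that is not among the 10, had 68 UMIs in WT DMXAA microglia (37, 10, 4 and 17 by replicate), none in the vehicle groups and 1 in KO DMXAA. *Ifi202b* had 48 UMIs in border macrophages over all libraries. The cluster of 154 nuclei led by *Ltf* and *S100a9*, mostly from WT DMXAA replicate 3, held 30 UMIs of the 7 genes in WT DMXAA.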

How the results depend on the processing

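No paired analysis was possible because the replicate numbers only name the mice of a group. No member was called in KO under any alternative run, and the count of 5 in WT microglia ranged from 4 to 7. Of 30 counts, shares and levels, 13 moved past a tolerance under at least 1 alternative (1.5 times for a count, 1 SD between libraries for a share), and others moved within it. With DESeq2 the count of members called was 1 at rest in microglia, 1 in WT excitatory neurons and 2 at rest over all nuclei, and that of the cGAS and STING list in WT microglia was 0. Without the low-count filter, the microglial counts were 1 at rest and 2 for the cGAS and STING list. With doublets kept, 2 members were called at rest in microglia and 3 over all nuclei. With only the compared groups, WT counts were 3 members over all nuclei, 0 members in cluster 0, and in excitatory neurons 0 for the cGAS and STING list and 1 for ISGF3. Thinned to 1000 UMIs, the share of microglia with a UMI of the 7 genes was 1.53% in WT vehicle and 0.294% in KO DMXAA.

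Leaving out 1 library at a time gave 0 to 1 calls for members at rest in microglia and oligodendrocytes and in WT in excitatory neurons and cluster 0, for the AIM2 inflammasome list in WT microglia, and for the cGAS and STING list in WT microglia and excitatory neurons. The range was 1 to 2 for members at rest over all nuclei and 0 to 3 at rest in cluster 13. It was 2 to 3 for ISGF3 in WT microglia and excitatory neurons. Signs turned in 6 single-gene results. In excitatory neurons these were *Ifi203* (-0.26 to 0.23) and *Mndal* (-0.07 to 0.41) with DMXAA in KO, and *Ifi203* (-0.50 to 0.06) and *Mndal* (-0.38 to 0.09, with 0.08 without WT vehicle replicate 2) at rest. In cluster 13 in WT they were *Mndal* (-0.01 to 0.33) and *Aim2* (-0.26 to 0.38), which was -0.01 without the filter. The cause was not tested. Depth limits the faint members: 3 UMIs stood at 1.01 to 1.68 CPM in microglia.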
